A study of Mus musculus and Homo sapiens with 4 samples.

Results

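The 8 genes described here belong to the machinery by which cells recognise and take up dying cells and lipoproteins, and were followed after knock-down of Merm1: the receptor genes MEGF10, CD36, SCARB1, STAB1, MERTK and LRP1 and the adaptor genes GULP1 and ELMO1. Every probe set whose platform symbol was one of the 8 symbols was used, which gave 17 probe sets for the 8 genes among 18193 named genes on the mouse array and 30 for the 8 genes among 19773 on the human array. No probe set of these genes carried a second symbol. The tested lines were LM8, a mouse osteosarcoma line, carrying the retroviral vector pSIREN-RetroQ with a short hairpin RNA against mouse Merm1, and A375M, a human melanoma line, carrying the vector with a hairpin against human Merm1. Each was set against the same line carrying the control vector. Merm1, also called Wbscr22 and now Bud23 or BUD23, encodes a methyltransferase of ribosomal RNA. Each of the 4 groups was 1 array of 1 stably infected line, and the labels give neither the number of clones behind a line nor a second hairpin.

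Engulfment starts when a receptor binds a signal on the target, often the lipid phosphatidylserine or a protein that bridges to it. MEGF10 is a transmembrane receptor with many EGF-like repeats, related to the worm receptor CED-1 and to fly Draper, and is known for debris clearance by glia and for its role in muscle precursor cells. LRP1 is a large endocytic receptor, MERTK a receptor tyrosine kinase that reads phosphatidylserine through GAS6 and protein S, and STAB1 a scavenger receptor of macrophages and sinusoidal endothelium. CD36 and SCARB1 are related scavenger receptors that bind fatty acids and lipoproteins as well as dying cells. Inside the cell GULP1 binds the tails of receptors such as MEGF10 and LRP1, and ELMO1 acts with DOCK1 to activate RAC1, which drives the actin cup.

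Values are log2 RMA levels per probe set, and each difference is the knock-down array minus the control array of the same line, on the log2 scale. The 8 genes were chosen by these same knock-down and control levels, since some of them differed between the arrays, so their differences are a description without a test. With 1 array per group there is no replicate error. A probe set was kept when, in 1 array of the pair or in both, its level exceeded the median over probe sets other than controls. That median was 5.28 in the LM8 knock-down and 5.29 in the LM8 control, and 4.67 in the A375M knock-down and 4.64 in the A375M control. As a gauge of scatter, the 5th and 95th percentiles of all kept differences were -0.38 and 0.35 in LM8 and -0.28 and 0.21 in A375M. Kept probe sets of the same gene differed among themselves with a typical (median) SD of 0.12 for mouse and 0.071 for human genes. Identical values in both arrays made up 33.1% of kept probe sets in A375M and 0.216% in LM8. They enter these gauges as differences of 0, so the gauges are not comparable between the lines. The brightest target probe set read 8.48 in the LM8 knock-down array and 10.61 in its control, and 8.38 in the A375M knock-down array and 10.70 in its control. Of the lineage markers matched to each array, 6 of 6 osteoblast genes in LM8 and 8 of 8 melanocyte genes in A375M lay above the median of both arrays, with MLANA close to it at 5.19 in the A375M knock-down array and 4.84 in the control. Each list held 9 genes, and genes without a matched symbol were not counted. In the other line, 4 of 9 melanocyte genes in LM8 and 5 of 8 osteoblast genes in A375M also lay above the median of both arrays.

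MEGF10 was lower in the knock-down array of both lines. Mouse Megf10 has 1 probe set, which read 7.89 in the LM8 knock-down array and 8.91 in the LM8 control array. The difference was -1.02, which leaves 49.2% of the control level, and it ranked 61st lowest among 23099 kept probe sets. These are bulk cultures, so fewer cells carrying a transcript and less of it per cell cannot be told apart. The brightest of 3 human MEGF10 probe sets read 6.24 in the A375M knock-down array and 7.23 in the A375M control array. Its difference of -0.99 leaves 50.4% of the control level and was the 8th lowest among 27617 kept probe sets. The other human MEGF10 probe sets did not go with it. One read 5.23 in the A375M knock-down array and 5.14 in the control, a difference of 0.089, and the other read 4.75 in both arrays. Both lie near the array median, and the value 4.75156 of the last was held by 295 other probe sets of the knock-down array and by 272 of the control array. The human result therefore rests on 1 probe set of 3, and the mean of the 3 differences was -0.30, which is not 1.5-fold.

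Among 8981 genes kept in both lines, 2, or 0.0223%, were at least 1.5-fold lower in both, namely MEGF10 and the target BUD23, each by its brightest probe set. With the mean of its probe sets MEGF10 was not. The gene at least 1.5-fold higher in both lines, 1 of 8981 or 0.0111%, was PDE7B, a cyclic AMP phosphodiesterase gene. MEGF10 was chosen with these differences known and BUD23 is the target of the hairpins, so nothing is read from these shares. The LM8 and A375M comparisons share no array, and the hairpins were made against the mouse and the human transcript. The other kept relatives of MEGF10 differed by less than 1.5-fold. In LM8 the 4 kept relatives lay between Pear1 at -0.11, which read 5.42 in the knock-down array and 5.52 in the control, and Megf9 at 0.27, which read 8.18 in the knock-down array and 7.91 in the control. In A375M the 4 others lay between SCARF2 at -0.098 and 0, the value of MEGF11 and MEGF6.

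**Figure D1:**
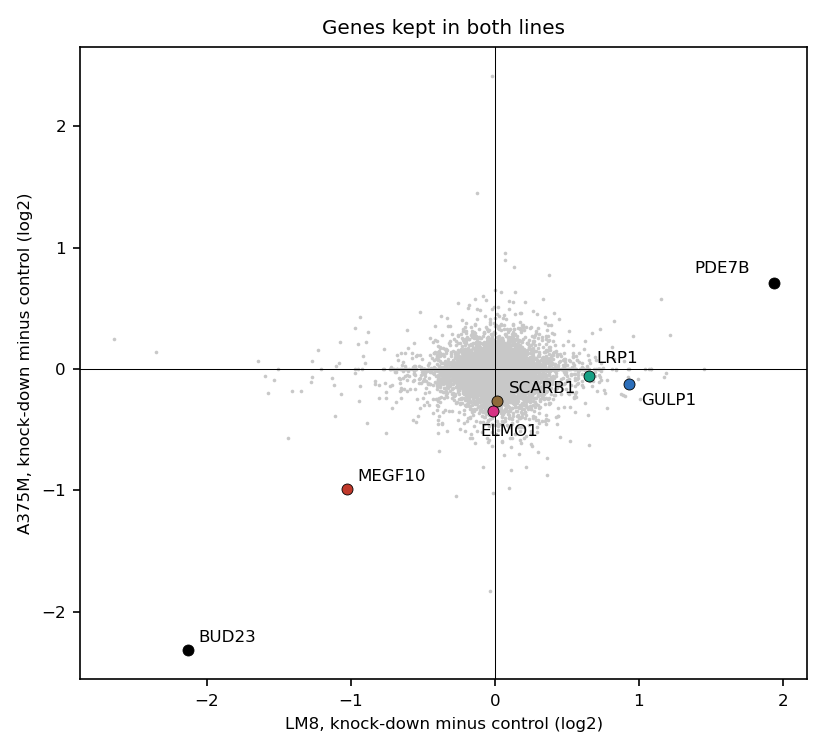
Differences (log2, knock-down minus control) in LM8 on the horizontal axis and in A375M on the vertical axis, for 8981 genes kept in both lines, each by its probe set with the highest mean. Members are coloured and BUD23 and PDE7B are black. MEGF10 (-1.02 and -0.99) lies with BUD23 in the lower left, while GULP1 and LRP1 lie to the right, near 0 for A375M.

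CD36 was higher in the A375M knock-down array on each of its 3 kept probe sets. The brightest read 8.83 in the knock-down array and 7.79 in the control, a difference of 1.05 or 2.06-fold. The second read 8.20 in the knock-down array and 7.04 in the control, a difference of 1.16 or 2.23-fold. The third, whose name marks no sharing with other transcripts, read 8.16 in the knock-down array and 6.69 in the control, a difference of 1.47 or 2.77-fold. All 3 control values lay above the array median, the lowest at the 72.1st percentile of the array. The 3 differences ranked 23rd, 17th and 6th highest among 27617 kept probe sets, and the SD between them was 0.22. The remaining CD36 probe sets were low in both arrays. They read 3.51 and 3.01 in the knock-down array and 3.38 and 2.79 in the control, with differences of 0.13 and 0.22.

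In LM8 all 3 Cd36 probe sets lay below the array median in both arrays. They read 3.73, 3.09 and 3.13 in the knock-down array and 3.05, 3.31 and 3.00 in the control. The differences were 0.68, -0.22 and 0.13. Their signs disagree, and the first of them, past 1.5-fold, starts from the 8.96th percentile of the control array, so no change of mouse Cd36 was measurable.

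GULP1 was higher in the LM8 knock-down array, while its A375M differences were negative and below 1.5-fold. The LM8 array holds 3 Gulp1 probe sets. The brightest read 8.84 in the knock-down array and 7.91 in the control, a difference of 0.93 or 1.91-fold. The second read 8.47 in the knock-down array and 7.47 in the control, a difference of 1.00 or 2.00-fold to 3 digits and just under 2-fold before rounding. The third read 5.39 in the knock-down array and 4.55 in the control, a difference of 0.84. It passed the filter through the knock-down array alone and so had to be higher there. The first and second probe sets, whose sign the filter did not fix, ranked 39th and 29th highest of 23099.

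In A375M 4 of 5 GULP1 probe sets were kept, and all 4 had negative differences, each below 1.5-fold. The brightest read 11.59 in the knock-down array and 11.72 in the control, a difference of -0.13. The next read 10.98 in the knock-down array and 11.26 in the control, a difference of -0.27. The third read 9.16 in the knock-down array and 9.52 in the control, a difference of -0.36. The dimmest kept one read 7.26 in the knock-down array and 7.75 in the control, a difference of -0.49. The differences of the brighter pair lie within the 5th and 95th percentiles of all kept differences of A375M, and those of the dimmer pair below them. The fifth read 2.70 in both arrays, a value also held by 214 other probe sets of the knock-down array and 209 of the control array.

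LRP1 and MERTK were higher in the LM8 knock-down array. The kept Lrp1 probe set read 8.77 in the knock-down array and 8.12 in the control, a difference of 0.65 or 1.57-fold, and ranked 178th highest. A low Lrp1 probe set went the other way, with 4.99 in the knock-down array and 5.26 in the control. The Mertk probe set read 7.85 in the knock-down array and 7.34 in the control, a difference of 0.51 or 1.42-fold, which ranked 421st highest of 23099. Mertk was the member probe set nearest to 1.5-fold from below and Lrp1 the nearest from above. In A375M the 2 kept LRP1 probe sets were slightly lower, reading 5.60 and 4.94 in the knock-down array and 5.66 and 5.15 in the control, with differences of -0.055 and -0.21. All 3 MERTK probe sets were low in A375M, between 2.59 and 3.46 in the knock-down array and between 2.59 and 3.29 in the control. The related kinase gene AXL read 11.04 in both A375M arrays, and TYRO3 read 8.22 in the knock-down array and 8.42 in the control.

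Gulp1, Lrp1 and Mertk had the highest kept differences among the members in LM8, so their promoters are described here. The 250 bases before the RefSeq start (build GRCm38.p6) were searched on both strands for the GC box GGGCGG, the CCAAT box CCAAT, the TATA box TATAAA and the cyclic AMP response element TGACGTCA, which do not overlap each other in these windows. The printed windows lie at chr10:127621149-127621398 (minus strand) for Lrp1 and at chr2:128698665-128698914 (plus strand) for Mertk, 5′ to 3′ on the strand of the gene, with GC boxes in capitals. Both hold a GC box whose first base lies at position -99 from the start.
Lrp1: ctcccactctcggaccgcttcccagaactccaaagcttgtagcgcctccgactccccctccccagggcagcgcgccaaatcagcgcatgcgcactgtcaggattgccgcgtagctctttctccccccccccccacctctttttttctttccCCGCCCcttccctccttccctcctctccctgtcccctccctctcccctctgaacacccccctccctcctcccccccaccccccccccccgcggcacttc
Mertk: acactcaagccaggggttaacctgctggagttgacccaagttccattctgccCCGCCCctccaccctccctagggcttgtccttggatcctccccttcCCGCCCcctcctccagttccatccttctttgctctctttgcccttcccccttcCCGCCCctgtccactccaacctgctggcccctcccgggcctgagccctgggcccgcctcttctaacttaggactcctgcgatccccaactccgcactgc

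The Lrp1 window held 1 GC box and the Mertk window 3, at positions -198, -152 and -99. The Gulp1 window, which is not printed because a longer RefSeq transcript starts before it, held 1 at -238. A GC box was in 32.7% of 32851 promoter windows of this length. No CCAAT box, TATA box or cyclic AMP response element was found in these 3 windows, against 33.8%, 12.4% and 1.55% of all windows. G and C made up 67.2% of the Lrp1 window, 63.6% of the Mertk window and 56.8% of the Gulp1 window, with a median of 52.4% over all windows. These are matches of letters in 250 bases and not measured sites.

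SCARB1, the receptor for high-density lipoprotein, was well expressed in both lines and differed little. The 3 Scarb1 probe sets read 9.87, 9.64 and 8.75 in the LM8 knock-down array and 9.86, 9.57 and 8.66 in the control, with differences of 0.014, 0.065 and 0.092. In A375M the brightest SCARB1 probe set read 9.95 in the knock-down array and 10.21 in the control, a difference of -0.27. The second read 8.41 in the knock-down array and 8.63 in the control, a difference of -0.22, and the third kept one differed by -0.062. So the 3 kept SCARB1 probe sets were on the lower side in A375M, each by less than 1.5-fold, while CD36 of the same receptor family was higher.

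ELMO1 gave mixed values in LM8, where the bright Elmo1 probe set read 8.62 in the knock-down array and 8.63 in the control. A second kept one read 5.96 in the knock-down array and 5.71 in the control, a difference of 0.25. In A375M the single ELMO1 probe set read 6.56 in the knock-down array and 6.90 in the control, a difference of -0.34. DOCK1, the partner of ELMO1, had a larger difference there. Its representative probe set read 6.03 in the A375M knock-down array and 6.84 in the control, a difference of -0.81, and its 3 kept probe sets ran from -0.81 to 0. In LM8 Dock1 read 8.92 in the knock-down array and 8.70 in the control. RAC1 read 12.64 in both A375M arrays, and Rac1 read 12.24 in the LM8 knock-down array and 12.25 in the control.

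STAB1 levels lay below the array medians in LM8 and on either side of them in A375M. The Stab1 probe set read 5.03 in the LM8 knock-down array and 4.88 in the control, below both array medians. In A375M the highest of 4 STAB1 probe sets read 5.61 in the knock-down array and 5.42 in the control, a difference of 0.19, and the other 3 were identical in both arrays. Macrophage and other leukocyte markers are given beside these receptors because macrophages carry them. In LM8, 3 of 9 such markers lay above the array median in both arrays, and their levels summed to 41.98 in the knock-down array and 41.63 in the control. Cd14, Csf1r and Laptm5 lay above it, and the other 6, Ptprc and Adgre1 among them, lay below. In A375M 4 of 8 matched markers lay above the median, with sums of 43.17 in the knock-down array and 43.23 in the control, ADGRE1 (8.79 in the knock-down array and 8.92 in the control), LAPTM5, AIF1 and ITGAM above it, and PTPRC, CSF1R, CD14 and TYROBP below. Endothelial markers summed to 34.75 in the LM8 knock-down array and 34.57 in the control, and to 31.73 in the A375M knock-down array and 31.36 in the control. Of 7 endothelial genes, 3 lay above the median in the LM8 knock-down array, 2 in its control and 4 in each A375M array. All sums here are of log2 levels, so opposite differences cancel in them, such as ERG at 0.43 and KDR at -0.40 in A375M. Platelet markers, given because platelets carry CD36, summed to 23.88 in the LM8 knock-down array and 22.90 in the control, and to 30.54 in the A375M knock-down array and 30.13 in the control. In A375M 3 of 5 lay above the median of both arrays, with GP9 at 5.69 in the knock-down array and 5.05 in the control, PF4 at 6.14 and 5.89, and ITGB3 at 10.10 and 10.42, while GP1BA and ITGA2B lay below. In LM8 most of the gap between the platelet sums came from Itgb3, at 5.71 in the knock-down array and 4.93 in the control. Gp9, Itga2b and Pf4 differed by 0.05, 0.06 and 0.09 there. In LM8, 0 of 4 adipocyte, 1 of 5 myogenic precursor and 2 of 4 astrocyte markers lay above the median of both arrays. In A375M these were 1 of 5, 2 of 5 and 3 of 4. The LM8 differences of the myogenic precursor markers ran from -0.45, of Des, to 0.38, of Pax7. Those of the astrocyte markers ran from 0.0065 to 0.31. The part of these cell types in the member differences was not tested.

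**Figure D2:**
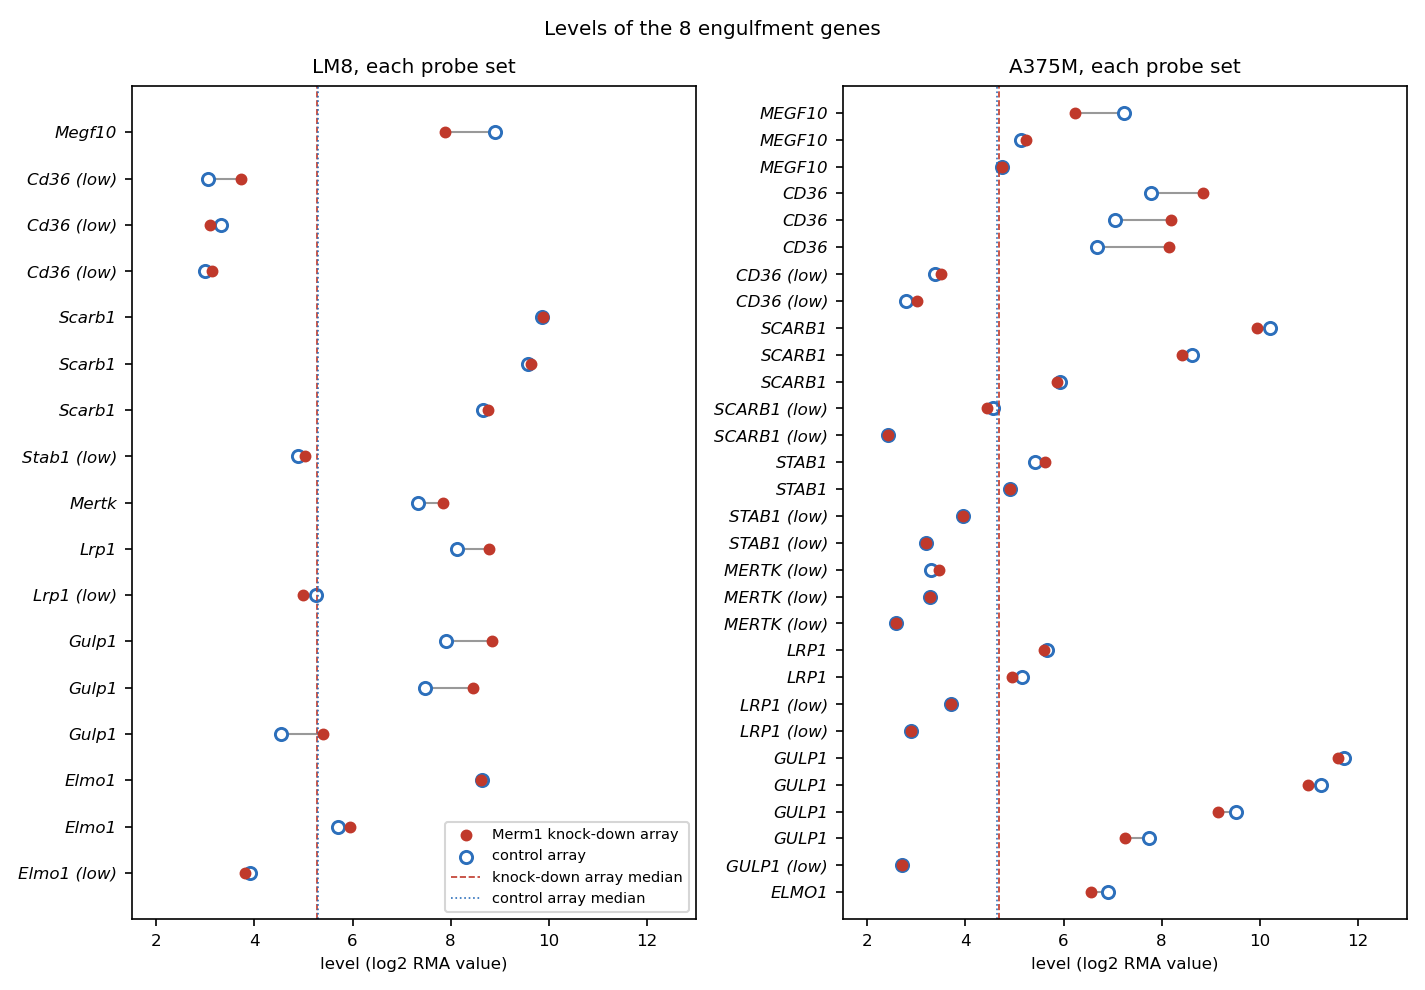
Level (log2 RMA value) of each member probe set in the knock-down array (red) and the control array (open blue), with LM8 on the left and A375M on the right, probe sets of a gene in order of mean level and the array medians as vertical lines. "Low" marks probe sets that did not pass the filter. The red points lie right of the blue ones for Gulp1, Mertk and the kept Lrp1 probe set in LM8 and for CD36 in A375M, and left of them for Megf10, for the top MEGF10 probe set and for 4 GULP1 probe sets.

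Counted over probe sets, 11 of 17 in LM8 and 18 of 30 in A375M passed the filter. In LM8 4 of the 11 were at least 1.5-fold higher, 3 of Gulp1 and 1 of Lrp1, beside 1.07% of all kept probe sets, and 1, Megf10, was at least 1.5-fold lower, beside 1.67%. At 2-fold the counts were 0 higher, beside 0.121%, and 1 lower, beside 0.281%. In A375M 3 of the 18 were at least 1.5-fold and also at least 2-fold higher, all of CD36, beside 0.333% and 0.0905% of all kept probe sets. One was at least 1.5-fold lower, of MEGF10, beside 0.445%, and 0 were at least 2-fold lower, beside 0.0253%. The members were chosen with these contrasts known, so nothing is read from these shares, and probe sets of 1 gene share their transcripts. Of the 12 human probe sets that did not pass, 8 were identical in both arrays, as were 2 that passed. Each of those 10 values recurred in other probe sets of the control array, and 45.4% of all human probe sets were identical against 0.705% of mouse probe sets, so an identical human value is weak evidence of an equal level.

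**Figure D3:**
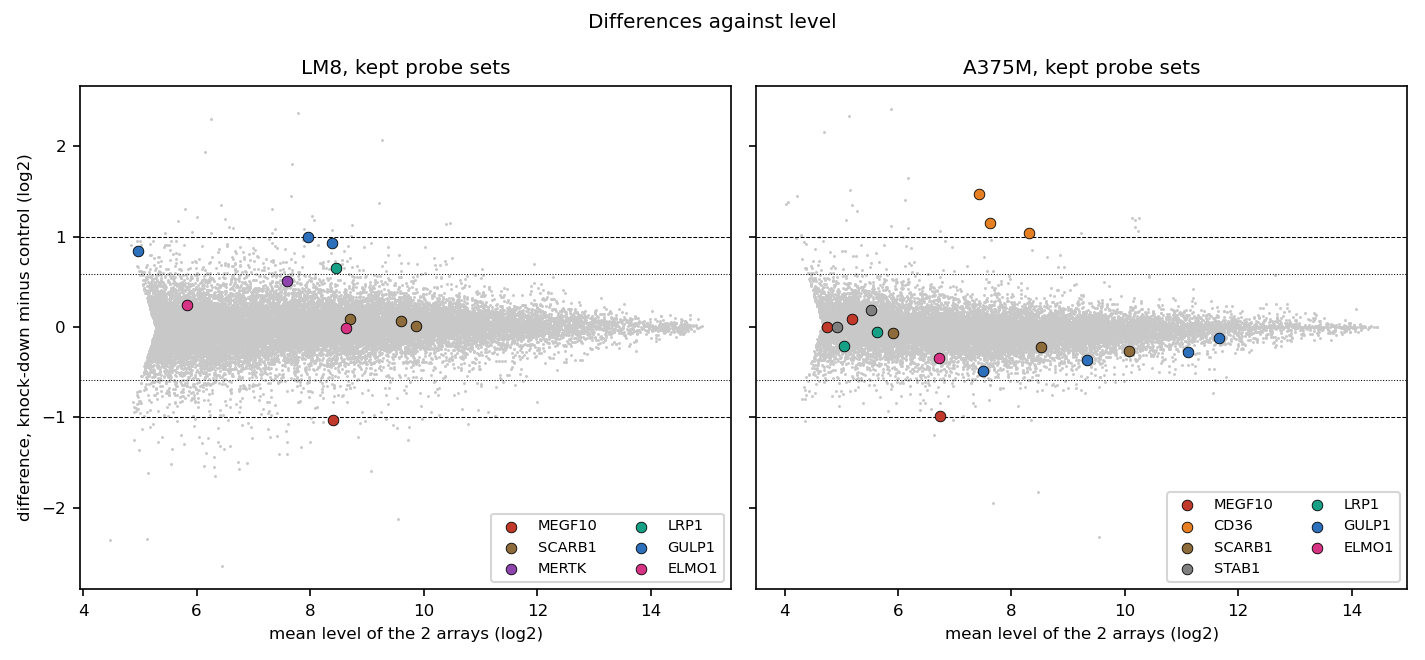
Difference (log2, knock-down minus control) against the mean level of the array pair for kept probe sets, with LM8 on the left and A375M on the right. Grey points are all kept probe sets, coloured points the members, dotted lines 1.5-fold and dashed lines 2-fold. Megf10, Gulp1 and Lrp1 lie outside the dotted lines in LM8, and CD36 and the brightest MEGF10 probe set do so in A375M.

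The wider engulfment and lipid uptake pathway was described with 10 lists of 155 genes in all, of which 107 genes were kept in LM8 and 120 in A375M. In LM8 4 of the 107 were at least 1.5-fold different, 3 higher and 1 lower, beside 1.16% of all kept genes higher and 1.31% lower. Besides Megf10, Lrp1 and Gulp1 this was Itgb3, an integrin subunit gene, whose probe set read 5.71 in the knock-down array and 4.93, below the median, in the control. The Itgb3 probe set passed the filter through the knock-down array alone and so had to be higher there. In A375M 3 of the 120 were, with CD36 higher and MEGF10 and DOCK1 lower, beside 0.378% of all kept genes higher and 0.37% lower. The lists include the members, which were chosen with these differences known, so nothing is read from these shares. Outside the members only Itgb3 in LM8 and DOCK1 in A375M passed 1.5-fold. The median difference over the lists was 0.023 in LM8, where all kept genes had 0.015, and -0.0016 in A375M, where all kept genes had 0.

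Among ligands, no kept gene of the bridging and eat-me list passed 1.5-fold in either line (10 in LM8, median 0.019, and 12 in A375M, median -0.0068). Pros1, which encodes protein S, a ligand of MERTK, came nearest, with 9.05 in the LM8 knock-down array and 8.49 in the control, a difference of 0.56. Gas6, the other MERTK ligand gene, read 10.35 in the LM8 knock-down array and 10.45 in the control. Thrombospondin, a ligand of CD36, is encoded by THBS1, which read 10.55 in both A375M arrays. Among receptors, the phosphatidylserine receptors stood at a median of 0.071 in LM8 (8 genes) and of 0.039 in A375M (9 genes). The scavenger receptors stood at a median of 0.014 in LM8 (8 genes) and of 0 in A375M (8 genes). SCARA5 was the lowest of them in A375M, at 7.86 in the knock-down array and 8.32 in the control. The MEGF family stood at a median of 0.048 in LM8 (5 genes) and of -0.049 in A375M (5 genes). LRP receptors and chaperones stood at a median of 0.040 in LM8 (8 genes) and at -0.071 in A375M (10 genes). Lrp12 was close to Lrp1 in LM8, at 9.10 in the knock-down array and 8.54 in the control.

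Inside the cell, engulfment adaptors and RAC1 activators stood at a median of 0.057 in LM8 (18 genes) and at 0 in A375M (18 genes), where 9 were identical in both arrays. No kept gene of the remaining lists passed 1.5-fold. Genes of phosphatidylserine exposure and do-not-eat-me signals stood at a median of -0.018 in LM8 (7 genes) and at -0.037 in A375M (8 genes). Cd47 was the lowest of them in LM8, at 11.43 in the knock-down array and 11.95 in the control, a difference of -0.52. In LM8 4 genes of this list were lower and 3 higher. CD47 read 10.66 in the A375M knock-down array and 10.74 in the control. Phagosome maturation genes stood at a median of 0.017 in LM8 (14 genes) and at -0.0025 in A375M (16 genes). Lipid uptake and handling genes stood at a median of -0.0040 in LM8 (15 genes) and at 0 in A375M (20 genes). APOE, which encodes apolipoprotein E, had the largest difference of that list in A375M, at 9.15 in the knock-down array and 8.59 in the control, or 1.47-fold. Membrane partners and kinases of CD36 stood at a median of 0.041 in LM8 (14 genes) and at -0.13 in A375M (15 genes), with 9 of the 15 lower, 3 higher and 3 identical. Over all lists together, 60 of 120 kept genes were lower in A375M, 30 higher and 30 identical. In LM8, 44 of 107 were lower and 63 higher. The matching shares over all kept genes are not given here, so nothing is read from these counts or from those of the CD36 partners.

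**Figure D4:**
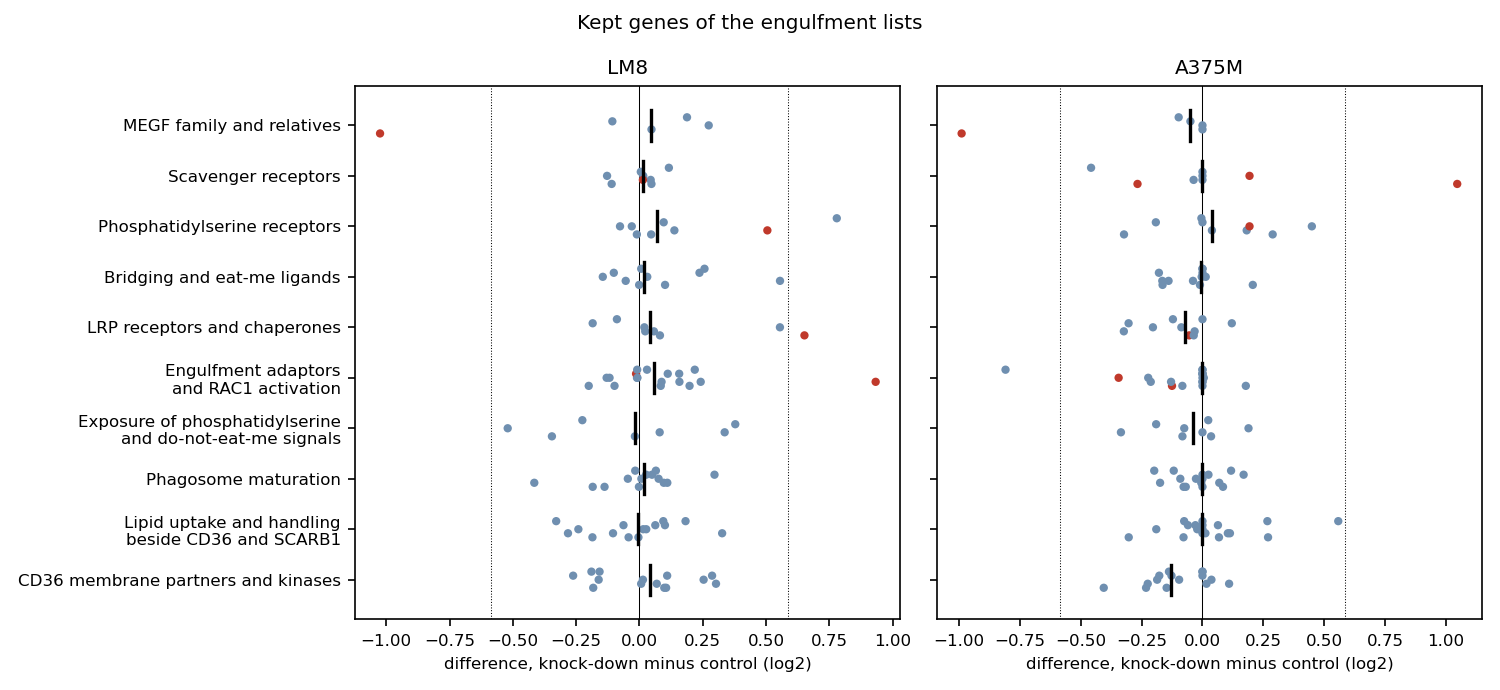
Differences (log2, knock-down minus control) of the kept genes of 10 lists in LM8 on the left and A375M on the right. Red points are members, blue points other genes, black bars list medians and dotted lines 1.5-fold. Outside the dotted lines lie Megf10, Lrp1, Gulp1 and Itgb3 in LM8, and MEGF10, CD36 and DOCK1 in A375M.

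Genes nearest to MEGF10 in pattern were found by the Euclidean distance between pairs of differences in LM8 and A375M, over 8980 genes kept in both lines. The nearest was SOX6, at a distance of 0.53, with differences of -0.76 in LM8 and -0.53 in A375M. TNFAIP3 followed at 0.56, RAMP1 at 0.59, ARHGAP29 at 0.60 and ANK3 at 0.71. None of them was at least 1.5-fold lower in both lines. The A375M difference of MEGF10 used here is that of its brightest probe set, and the mean of its 3 probe sets was -0.30. The order near MEGF10 is therefore imprecise. For CD36, over 10615 genes kept in A375M, the nearest were MME at 0.34, SOX11 at 0.35, PKDCC at 0.41, DTNA at 0.45 and MGST1 at 0.48. The LM8 differences of Cd36 and of MME, SOX11, DTNA and MGST1 come from low probe sets, so this second order is imprecise.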

How the data were processed

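Total RNA of 4 stably infected lines was made into biotinylated cRNA for Affymetrix arrays, per the labels' protocols. The deposited values are log2 levels per probe set that the authors made with RMA, per the submitters' processing notes; the version and the arrays processed together are not given in the sources used here. RMA makes array distributions nearly equal (the widest gap between sorted values was 0.064 for LM8 and 0.075 for A375M), so a global shift would not be seen. Gene symbols came from GEO's platform annotation. The members and gene lists were chosen with earlier results of these data known. Differences were computed with Python 3.11.15 and pandas 2.3.3. In lists, a gene was represented by the brightest of its probe sets that carry its symbol alone. Named genes were the members, the target, up to 4 genes per list and line past 1.5-fold, and the 5 nearest to MEGF10 and to CD36. Other list genes (AXL, TYRO3, RAC1, Pros1, Gas6, THBS1, SCARA5, Lrp12, APOE, CD47, MEGF relatives) were chosen after their values were seen. No test was run, since each group held 1 array, which limits the precision. Scripts were tested on simulated shifts. Promoter sequences are from RefSeq, build GRCm38.p6, which held 6 of the 8 mouse genes. Levels of genes were set against the array median and are given side by side, but no ratio of levels between genes or array designs was computed. Probe sets of 1 gene were ordered by level. A level can reflect probe response as well as transcript amount.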

Additional observations from a re-analysis of the deposited data

Results flagged for a closer look

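The brightest GULP1 probe set differed by 0.93 in LM8 and by -0.13 in A375M, which lie 1.06 apart on the log2 scale and have opposite signs. The A375M value is below 1.5-fold and within the range of most kept differences of that line. The other kept human GULP1 probe sets differed by -0.27, -0.36 and -0.49, each below 1.5-fold. The dimmer pair of them lies below the 5th percentile of that line, -0.28. The difference between the lines was not tested, since each rests on 1 array pair and the lines come from different species and array designs.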

How the results depend on the processing

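No called member difference changed sign under the 4 rescalings (arrays centred on their medians, quantile normalization repeated, a loess curve with span 0.4 removed, 32 added to the linear values), and 64 of 68 rescaled differences in LM8 and 109 of 120 in A375M moved by less than the median SD between probe sets of a gene. The others moved with 32 added, which shrinks differences of dim probe sets by construction: in A375M the kept CD36 probe sets came to 0.95, 0.99 and 1.23 and MEGF10 to -0.76, and in LM8 the dimmest Gulp1 probe set came to 0.42. With 32 added, 0 LM8 members were at least 2-fold lower and 1 A375M probe set was at least 2-fold higher. Centring, which moves all differences alike, made 1 Gulp1 probe set at least 2-fold higher in LM8 and 1 MEGF10 probe set at least 2-fold lower in A375M. Without probe sets marked as shared, 1 CD36 probe set was at least 1.5-fold and 2-fold higher in A375M. Of the list medians, 78 of 80 in LM8 and 76 of 80 in A375M moved by less than that SD. With 32 added, or with the filter set at the 70th percentile, 0 phosphatidylserine receptor genes were at least 1.5-fold higher in LM8, so Itgb3 was no longer counted. No paired analysis was possible because the results come from no test, and no replicate could be left out of groups of 1 array. With the mean of a gene's kept probe sets, 0 genes of the MEGF family list were at least 1.5-fold lower in A375M, and MEGF10 stood at -0.30 there. Levels near the array median limit what can be read from STAB1 and the dimmer MEGF10 probe sets, and levels below it what can be read from human MERTK and mouse Cd36.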
